A study of Mus musculus with 14 samples.

Results

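The levels of 10 genes of the JAK2-STAT5 pathway were examined in all 14 libraries of the series, out of 55487 genes counted in the files. The genes were picked by name for their place in the pathway, with earlier results of these data known, and all 10 passed the filter on low counts in every comparison. They were the kinases Jak1, Jak2 and Tyk2, the transcription factors Stat3, Stat5a and Stat5b, the feedback inhibitors Socs1, Socs2 and Cish, and the STAT5 target Pim1. The study asked how interleukin-1β (IL-1β), an inflammatory cytokine, acts on blood progenitors that carry the JAK2V617F mutation and on bone marrow stromal cells, and it profiled both by RNA sequencing.

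LSK cells (lineage-negative, Sca1-positive, c-Kit-positive, the fraction that holds the stem cells) and LK cells (lineage-negative, c-Kit-positive myeloid progenitors, labelled MP) were sorted from bone marrow of C57BL/6 mice. These mice were irradiated recipients of Mx1Cre; Jak2VF/+ marrow, in which one copy of Jak2 had been switched to the mutant form with poly(I:C) through the interferon-responsive Mx1 promoter. They received PBS or IL-1β at 0.5 µg per dose by intraperitoneal injection, 3 doses a week for 16 weeks, and every LSK and LK library, the PBS controls included, carries the mutant allele. The mesenchymal stromal cells (MSC) were grown from wild-type C57BL/6 marrow for 21 days and were given PBS or IL-1β at 5 ng/ml for 72 h. There were 3 PBS and 2 IL-1β libraries each of LSK and LK cells, and 2 PBS and 2 IL-1β libraries of MSC. Counts per gene include both alleles of Jak2, so the mutant and the normal transcript were not separated. How the libraries of a group relate to single mice or cultures was not given in the labels, and the p-values measure only the spread between these libraries.

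Total counts were 12172400 to 16271408 in LSK PBS, 4393233 and 8641124 in LSK IL-1β, 12804883 to 18544346 in LK PBS and 6367352 and 7652483 in LK IL-1β. Every IL-1β library of these 2 populations was shallower than every PBS library, so depth and treatment cannot be told apart there. The MSC totals were 5834909 and 13155033 under PBS and 11681794 and 30871055 under IL-1β. Of the LSK PBS libraries, replicate 2 stood apart, with 3181 genes over 2-fold away from replicate 3 and 2966 from replicate 1, against 724 between replicates 1 and 3. The gate genes matched the labels, since Ly6a (Sca1) was between 15.2 and 42.1 CPM (counts scaled to library size) in the LSK libraries and between 0.257 and 1.99 CPM in the LK libraries. The MSC libraries contained the mesenchymal genes Col1a1 and Prrx1, but per length the macrophage lysozyme gene Lyz2 was far more abundant, at 6413 and 4427 CPM per kb of exon under PBS against 147 and 75.0 CPM per kb for Col1a1. The label MSC is kept here for these libraries. Of the 12 mesenchymal markers, Lepr was at 0 in both MSC PBS libraries and Lum in replicate 3.

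JAK kinases sit on the inner side of cytokine receptors that have no enzyme of their own. When erythropoietin, G-CSF or a related cytokine binds, JAK2 phosphorylates the receptor and the STAT proteins docked there, and STAT5 moves to the nucleus and switches on genes such as Cish, Socs2, Socs1 and Pim1. The products of Cish and the Socs genes shut the receptor off again, and the V617F change leaves JAK2 active without a cytokine, which drives the overproduction of blood cells in myeloproliferative neoplasms.

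The Cish start region is shown because it holds a pair of copies of the palindromic STAT5 motif TTCNNNGAA. RefSeq start windows (250 bases before to 50 after the start, build GRCm38.p6) were matched for 9 of the 10 genes. Stat5a, Stat5b and Pim1 had more than 1 window each, and only the Cish window held the motif. Of all 32851 windows of that length 8.30% held it, a share per window and not per gene. The 1 window with it among those of the members is close to that share. Since the motif is its own reverse complement, a search of 1 strand covers both, and its 2 copies in Cish do not overlap. The stretch at chr9:107296655-107296682, on the plus strand, lies in the first exon and the 5′ UTR of the protein-coding transcript Cish-201 in GENCODE M21, with the motif copies in capitals:
Cish: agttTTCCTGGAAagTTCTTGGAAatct
The first copy begins at the first base of the RefSeq transcript and the second 11 bases further on. No such match was found in the windows of Jak1, Jak2, Tyk2, Stat3, Stat5a, Stat5b, Socs1 and Pim1, which says only that these letters are not in those windows.

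In levels scaled over all 14 libraries and divided by exon length (CPM per kb), the serine/threonine kinase gene Pim1 was the most abundant of the 10 in LSK cells, at 69.3 ± 1.78 (SD, n = 3) under PBS and 72.1 ± 2.30 (n = 2) under IL-1β. The mean level of Jak1 in LSK PBS was 37.0 CPM per kb, that of Stat5b 35.7, Stat3 25.4, Stat5a 19.9, Jak2 15.5 and Tyk2 9.01. The feedback inhibitors were the least abundant, with mean levels of 1.77 CPM per kb for Cish, 1.605 for Socs1 and 0.625 for Socs2 in the same group. Even so, every member had counts in every library.

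**Figure D1:**
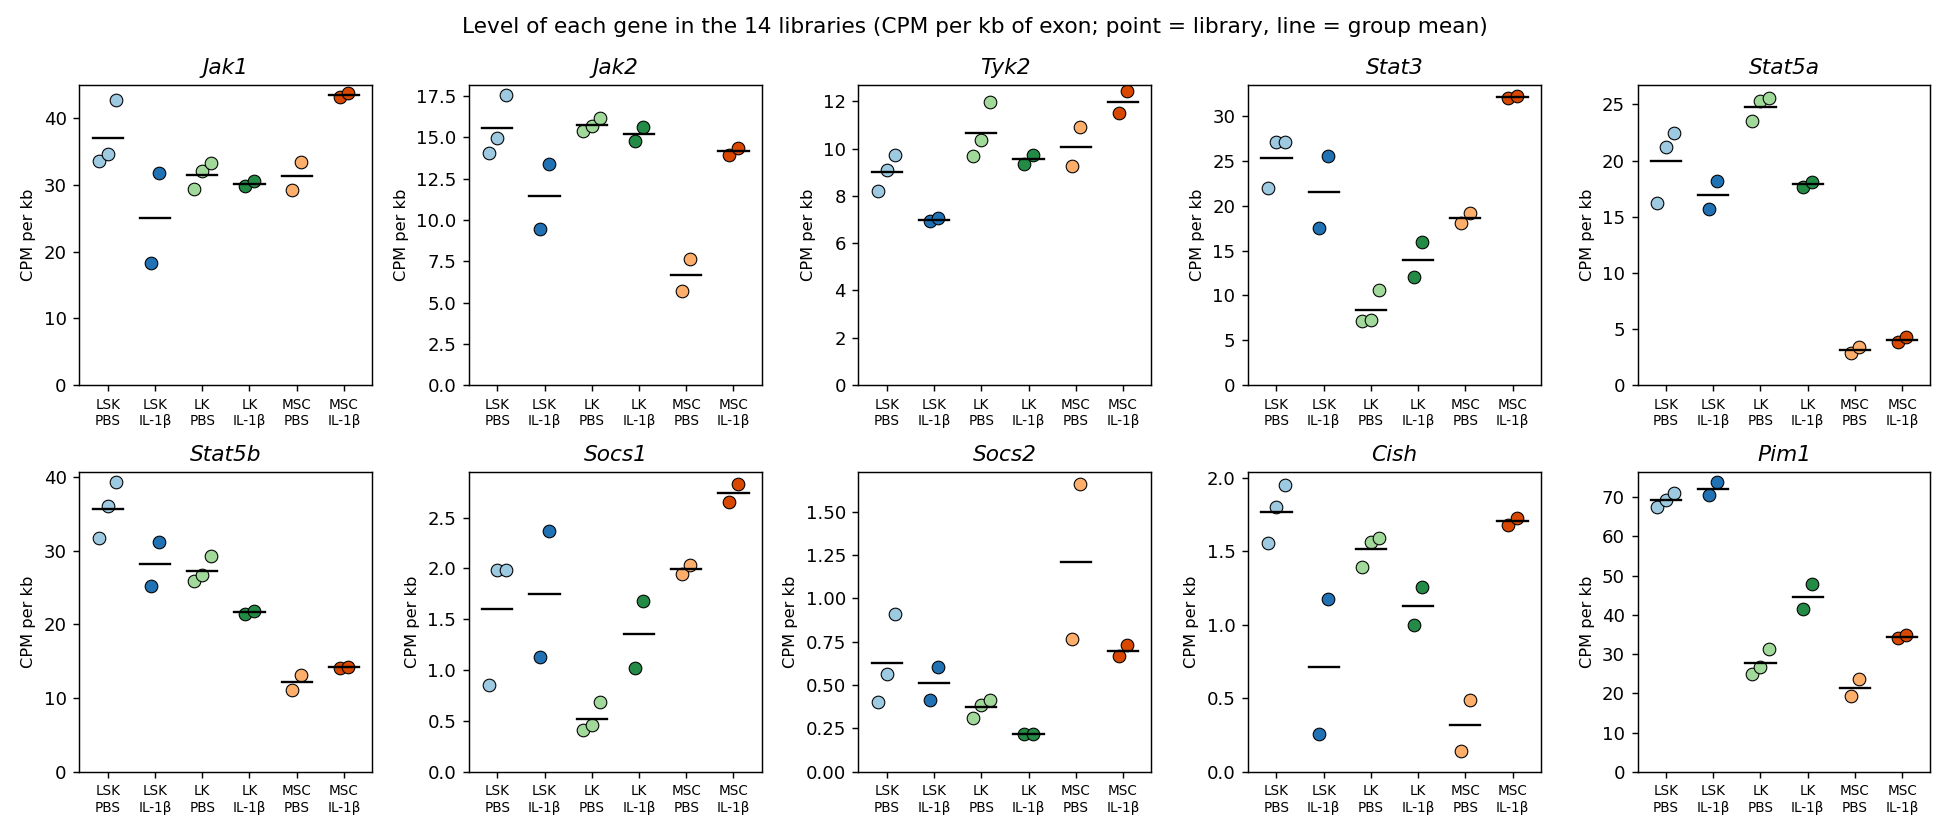
Level of each of the 10 genes in the 14 libraries, in CPM per kb of exon on linear axes that start at 0, by population and treatment. Each point is a library and each line a group mean, and Stat5a and Stat5b are lowest in the MSC libraries, Pim1 is highest in LSK cells, and Jak2, Stat3, Cish and Pim1 are higher in both IL-1β libraries of MSC than in both PBS libraries.

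The STAT5 genes were lower in the MSC libraries than in the progenitor libraries. Stat5a levels ranged from 15.7 to 25.6 CPM per kb over the LSK and LK libraries and from 2.86 to 4.24 over the MSC libraries, and Stat5b levels from 21.4 to 39.3 and from 11.1 to 14.2. In the order of group means, Stat5a ran from LK PBS (24.8) through LSK PBS (19.9), LK IL-1β (17.9), LSK IL-1β (16.9) and MSC IL-1β (4.02) to MSC PBS (3.10), and only the 3 groups in the middle of the progenitors, LSK PBS, LK IL-1β and LSK IL-1β, overlapped their neighbours. Jak2 was at 15.8, 15.5 and 15.2 CPM per kb in LK PBS, LSK PBS and LK IL-1β, where neighbours overlapped. It was then at 14.2 in MSC IL-1β, 11.4 in LSK IL-1β and 6.68 in MSC PBS, each without overlap with the group next above it. The higher MSC IL-1β library (14.4) was still above the lowest LSK PBS library (14.1). Stat3 was highest in MSC IL-1β (32.1), followed by LSK PBS (25.4), LSK IL-1β (21.6), MSC PBS (18.6), LK IL-1β (13.99) and LK PBS (8.33), and LSK IL-1β overlapped the groups on either side of it. Pim1 fell from the 2 overlapping LSK groups through LK IL-1β (44.6), MSC IL-1β (34.4) and LK PBS (27.6) to MSC PBS (21.5), with no overlap among the last 4 groups. Populations differ in genotype, route of treatment and culture as well as in cell type, so the MSC and progenitor levels are given side by side. They were not tested against each other. Macrophage lysozyme RNA far exceeded Col1a1 in the MSC PBS libraries, and which cells of these cultures carry the pathway genes was not tested.

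Socs1 had its highest group mean in MSC IL-1β (2.74 CPM per kb) and its lowest in LK PBS (0.520), and the 4 groups from MSC PBS to LK IL-1β overlapped in turn. For Socs2 the order ran from MSC PBS (1.21) to LK IL-1β (0.218), and the 4 groups from MSC IL-1β to LK PBS each overlapped the next. For Cish, LSK PBS (1.77) and MSC IL-1β (1.70) overlapped at the top, and LK IL-1β (1.13), LSK IL-1β (0.715) and MSC PBS (0.317) overlapped in turn at the bottom. Jak1 varied from 43.5 CPM per kb in MSC IL-1β to 25.04 in LSK IL-1β, and Tyk2 from 11.97 in MSC IL-1β to 6.9996 in LSK IL-1β. LSK IL-1β was thus the lowest of the 6 groups for both kinases, with no overlap with the group above it for Tyk2 and overlap for Jak1.

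IL-1β was compared with PBS within each population. A gene counted as called at an adjusted p under 0.05 in edgeR's quasi-likelihood test together with a log2 fold change over 0.5 in size. In LSK cells 0 of the 10 members were called, against 0.632% of the 13132 genes tested (0.320% higher and 0.312% lower). There 0 of 10 also had an unadjusted p under 0.05, where 18.5% of all genes did, and DESeq2 and limma-voom called 0 members as well. In LK cells 1 of 10 was called, Pim1, which was higher, against 9.34% of 12835 genes (6.77% higher and 2.57% lower), and 5 of 10 had an unadjusted p under 0.05, where 24.7% of all genes did. In MSC 4 of 10 were called, Jak2, Stat3, Cish and Pim1, all of them higher with IL-1β, against 11.4% of 13239 genes (7.14% higher and 4.31% lower), and 5 of 10 had an unadjusted p under 0.05, where 30.0% of all genes did.

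The log2 fold change was above 0 for 2 of the 10 members in LSK, 5 in LK and 9 in MSC, where 46.5%, 47.1% and 50.4% of all genes were above 0. The median over the 10 members was -0.32 in LSK, -0.04 in LK and 0.43 in MSC, beside -0.06, -0.03 and 0.00437 over all genes tested. PBS and IL-1β values did not overlap for 5 of the 10 members in LSK, 7 in LK and 10 in MSC, and for 39.6%, 45.7% and 61.2% of all genes, so that non-overlap was common with so few libraries.

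**Figure D2:**
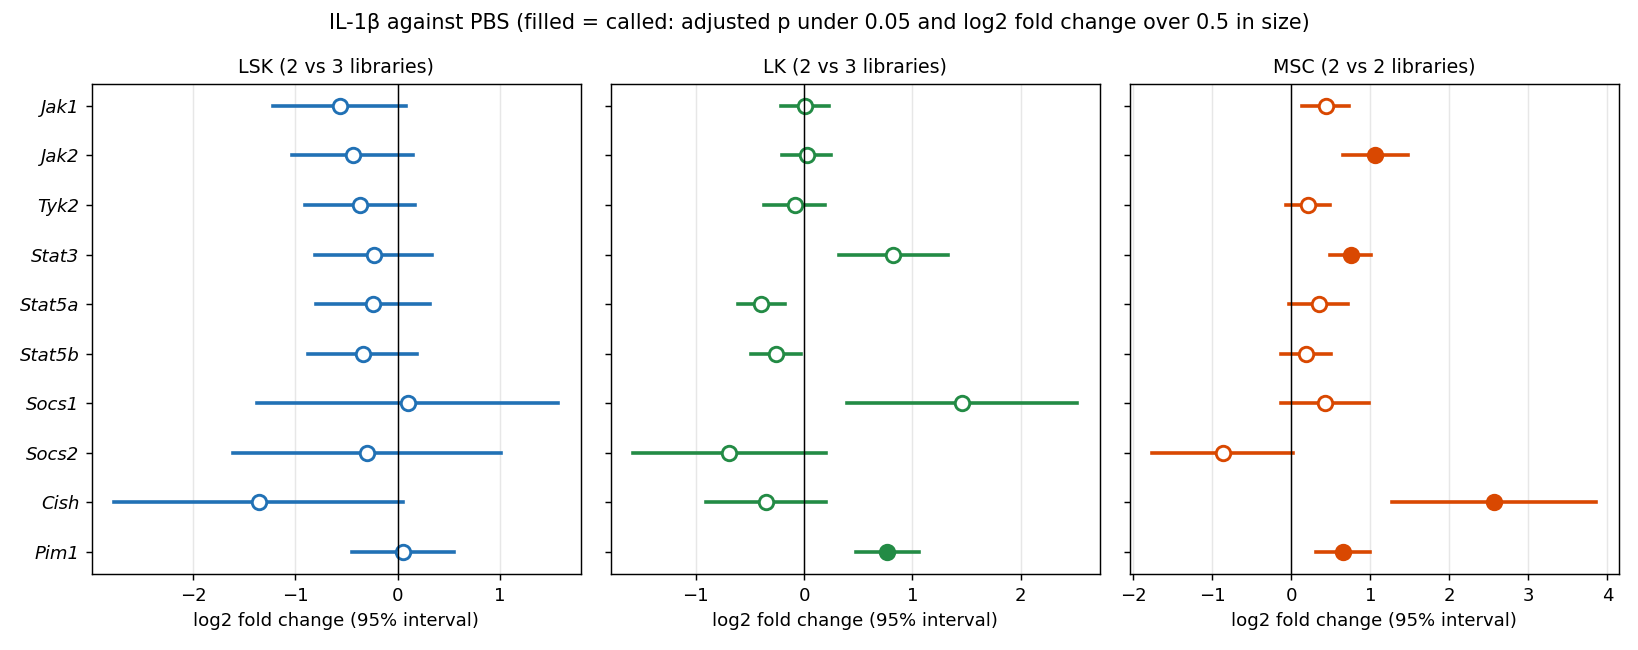
Log2 fold change of each gene between IL-1β and PBS, with its 95% interval, in LSK, LK and MSC libraries. Filled points are called genes, namely Pim1 in LK and Jak2, Stat3, Cish and Pim1 in MSC, and the intervals in LSK are the widest because the spread between libraries was largest there.

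Jak2 (chr19:29251828-29313080, plus strand, GRCm38), the kinase that carries the mutation in the progenitors, rose with IL-1β in the wild-type MSC cultures. Its normalised count was 32.5 and 23.7 CPM in the 2 MSC PBS libraries and 57.3 and 58.6 CPM in the 2 IL-1β libraries. Both treated cultures lay above both controls, and the log2 fold change was 1.06 ± 0.17 (SE), with an adjusted p of 0.0175 in edgeR's quasi-likelihood test. In LK cells Jak2 was at 79.0, 80.9 and 84.3 CPM under PBS and at 85.2 and 80.2 CPM under IL-1β. The LK groups overlapped, and the log2 fold change of 0.02 had a 95% interval from -0.21 to 0.25. In LSK cells Jak2 was at 97.8, 78.3 and 85.6 CPM under PBS and at 75.0 and 53.3 CPM under IL-1β. Both LSK IL-1β libraries were below the lowest control, but the log2 fold change of -0.44 (95% interval -1.03 to 0.15) was not called, at an adjusted p of 0.392 by edgeR.

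Jak1, the kinase shared by interferon, interleukin-6 and common gamma chain receptors, was at 342, 269 and 284 CPM in the LSK PBS libraries and at 255 and 148 CPM in the LSK IL-1β libraries. The treated libraries were lower without overlap and far from each other, and the log2 fold change of -0.56 (95% interval -1.21 to 0.08) did not pass the test (edgeR, adjusted p = 0.323). In LK cells Jak1 differed by 0.01 on the log2 scale, within an interval from -0.21 to 0.23. In MSC its normalised count was 204 and 174 CPM under PBS and 251 and 261 CPM under IL-1β, a log2 fold change of 0.44 with an adjusted p of 0.0698 in edgeR's quasi-likelihood test. Without MSC PBS replicate 2, which leaves 1 control library, that log2 fold change was 0.56.

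Tyk2, which serves type I interferon and interleukin-12 receptors, was not called in any population. In LSK cells it was at 73.9, 69.1 and 63.9 CPM under PBS and 53.8 and 53.3 CPM under IL-1β, so that both treated libraries lay below all controls, and its log2 fold change of -0.36 had an interval from -0.90 to 0.17. The log2 fold change of Tyk2 was -0.09 in LK (interval -0.37 to 0.19) and 0.21 in MSC (interval -0.07 to 0.49).

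Stat3, the transcription factor downstream of interleukin-6 and G-CSF, rose in MSC and had its largest progenitor difference in LK cells. In MSC it was at 154 and 142 CPM under PBS and at 242 and 256 CPM under IL-1β, a log2 fold change of 0.75 ± 0.11 (SE) with an adjusted p of 0.0135 by edgeR and no overlap. In LK cells Stat3 was at 69.2, 70.7 and 105 CPM under PBS and at 165 and 124 CPM under IL-1β. Both LK IL-1β libraries were above the highest control, replicate 3, which stood well above the other 2 controls. The log2 fold change was 0.82 ± 0.21 (SE), but its adjusted p of 0.0558 in edgeR's quasi-likelihood test missed the threshold. DESeq2 gave 0.83 with an adjusted p of 0.00255, and without LK PBS replicate 3 edgeR gave 1.05 with an adjusted p of 7.65e-05, both of which would be called. In LSK cells the PBS libraries of 285, 285 and 237 CPM overlapped the IL-1β libraries of 271 and 187 CPM, and the log2 fold change was -0.23 (95% interval -0.81 to 0.34).

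Stat5a and Stat5b, the neighbouring paralogs on chromosome 11 that mediate most JAK2 output in blood progenitors, were lower in both LK IL-1β libraries than in all LK controls. Stat5a was at 171, 185 and 189 CPM under PBS and at 140 and 136 CPM under IL-1β in LK cells. Its log2 fold change of -0.40 (95% interval -0.61 to -0.18) had an adjusted p of 0.0340 by edgeR, but its size was under the fold threshold, so it was not called. Stat5b in LK cells was at 151, 147 and 168 CPM under PBS and at 131 and 128 CPM under IL-1β, with a log2 fold change of -0.26 and an adjusted p of 0.148 by edgeR. Again the groups did not overlap, and the difference did not pass the test. Between the transcripts of the 2 genes, 608 of the 7407 windows of 50 bases in Stat5a and 608 of 5535 in Stat5b were identical, so reads that fall wholly in these stretches could not be assigned to one of them. Stat5b (chr11:100780731-100850724), Stat5a (chr11:100859351-100885169) and Stat3 (chr11:100885098-100939540) lie next to each other in GRCm38. The ends of Stat5a and Stat3, on opposite strands, overlap between positions 100885098 and 100885169, and the counting used strand.

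In LSK cells Stat5a was at 177, 128 and 172 CPM under PBS and at 144 and 125 CPM under IL-1β, with overlap at the low control, replicate 2, and a log2 fold change of -0.24 (95% interval -0.80 to 0.32). Stat5b was at 221, 241 and 199 CPM under PBS and at 192 and 156 CPM under IL-1β, where the groups did not overlap and the log2 fold change was -0.34 (interval -0.87 to 0.19). Neither passed the test in LSK cells. In MSC the log2 fold change was 0.35 for Stat5a and 0.19 for Stat5b, with adjusted p-values of 0.193 and 0.376 in edgeR's quasi-likelihood test.

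Cish (chr9:107296026-107302784, plus strand), which encodes a STAT5-induced inhibitor that binds activated cytokine receptors and whose start region is printed above, showed its clearest change in MSC. It was at 2.67 and 0.753 CPM in the PBS libraries (16 and 10 counts) and at 8.56 and 9.27 CPM in the IL-1β libraries (261 and 105 counts). The treated cultures were higher without overlap, and the log2 fold change was 2.57 ± 0.52 (SE), with an adjusted p of 0.0344 in edgeR's quasi-likelihood test. In LSK cells Cish was at 12.8, 13.9 and 11.3 CPM under PBS and at 1.83 and 8.43 CPM under IL-1β, from 15 and 34 counts. Both treated libraries were below every control but lay far apart from each other, and the log2 fold change of -1.36 (95% interval -2.77 to 0.05) did not pass the test (edgeR, adjusted p = 0.282). In LK cells Cish was at 9.14, 10.3 and 10.6 CPM under PBS and at 8.74 and 6.90 CPM under IL-1β, with a log2 fold change of -0.35 and an interval from -0.90 to 0.20.

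Socs1, the inhibitor that blocks the kinase domain of the JAKs, was at 1.35, 1.23 and 2.07 CPM in LK PBS (17, 24 and 29 counts) and at 5.30 and 3.21 CPM in LK IL-1β (40 and 20 counts). The treated LK libraries were higher without overlap, and the log2 fold change of 1.46 ± 0.46 (SE) had an adjusted p of 0.0871 by edgeR, which did not pass. Without LK PBS replicate 3 it was 1.73 with an adjusted p of 0.00944. In LSK cells Socs1 was at 6.36, 2.74 and 6.55 CPM under PBS and at 3.65 and 7.69 CPM under IL-1β, 2 ranges that overlapped, with a log2 fold change of 0.10 (95% interval -1.37 to 1.57). In MSC it was at 5.00 and 4.67 CPM under PBS and at 6.53 and 6.44 CPM under IL-1β, a log2 fold change of 0.43 with an adjusted p of 0.263 by edgeR.

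Socs2, which dampens growth hormone and other STAT5-coupled receptors, had a negative log2 fold change in each of the 3 populations and was called in none of them. In MSC it was at 6.17 and 13.03 CPM under PBS and at 5.51 and 5.29 CPM under IL-1β, a log2 fold change of -0.87 with an adjusted p of 0.176 by edgeR. The controls there were over 2-fold apart. Without PBS replicate 2, the lower of them, the log2 fold change was -1.25, against the 1 control left. In LK cells it was at 3.73, 4.06 and 3.08 CPM under PBS and 2.25 and 2.25 CPM under IL-1β, without overlap but from only 17 and 14 counts in the treated libraries, and the log2 fold change of -0.69 had an interval from -1.58 to 0.20. In LSK cells the groups overlapped, and the log2 fold change was -0.30 (interval -1.61 to 1.01).

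Pim1 (chr17:29490753-29496112, plus strand), a survival and growth kinase switched on by STAT5 and STAT3, rose with IL-1β in LK cells and in MSC. In LK cells it was at 91.6, 85.9 and 109 CPM under PBS and at 175 and 150 CPM under IL-1β. Both treated libraries were above all controls, and the log2 fold change was 0.77 ± 0.13 (SE), with an adjusted p of 0.00905 in edgeR's quasi-likelihood test. Without LK IL-1β replicate 1, which leaves 1 treated library, it was 0.64 with an adjusted p of 0.160 and Pim1 was not called. In MSC Pim1 was at 67.2 and 53.4 CPM under PBS and at 90.8 and 97.8 CPM under IL-1β, a log2 fold change of 0.65 ± 0.14 (SE) with an adjusted p of 0.0377 by edgeR and no overlap. In LSK cells it was at 251, 264 and 265 CPM under PBS and at 263 and 277 CPM under IL-1β, and the log2 fold change of 0.06 had an interval from -0.44 to 0.55.

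The 4 calls in MSC rested on both IL-1β libraries. Without IL-1β replicate 1 or replicate 2, which leaves a single treated library assumed to vary like the controls, 0 of the 10 members were called, while the log2 fold changes of Jak2 (1.08 and 1.03), Stat3 (0.80 and 0.71), Cish (2.53 and 2.42) and Pim1 (0.71 and 0.59) kept their direction. A fit without either PBS library leaves a single control, so only sizes are given. Without PBS replicate 3 Pim1 was at 0.49, just under the fold threshold. The size for Cish turned on the controls, at 3.55 without PBS replicate 2 and 1.73 without PBS replicate 3. In bulk libraries a change in the share of a cell type and a change in RNA per cell cannot be told apart. The summed level of 12 monocyte and macrophage markers was 14252 and 11321 CPM per kb in MSC PBS and 29621 and 28899 CPM per kb in MSC IL-1β, with Lyz2 the most abundant in all 4 libraries, Ly6c2 at 0 in 1 library of each treatment, and 6 of 11 tested markers called higher. The summed level of the 12 mesenchymal markers was 408 and 216 CPM per kb under PBS and 597 and 635 under IL-1β, with 1 of 11 called, Dcn, which rose. The 8 megakaryocyte markers summed to 42.7 and 52.9 CPM per kb in MSC PBS and to 175 and 182 in MSC IL-1β, led by Pf4 (2.33), while Ppbp, at 0 in both controls, was also called higher and Itgb3 (-1.29) lower. Gp9, Gp1bb and Gp6 were at 0 in all 4 libraries. The neutrophil genes Camp (1 and 2 counts under PBS, 207 and 86 under IL-1β) and Mmp8 (2.99) were called higher as well, and Kit (-2.47, from 3 to 26 counts a library) and the lymphoid gene Il7r (-0.81) lower. The part of any of these in the JAK-STAT values was not tested.

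**Figure D3:**
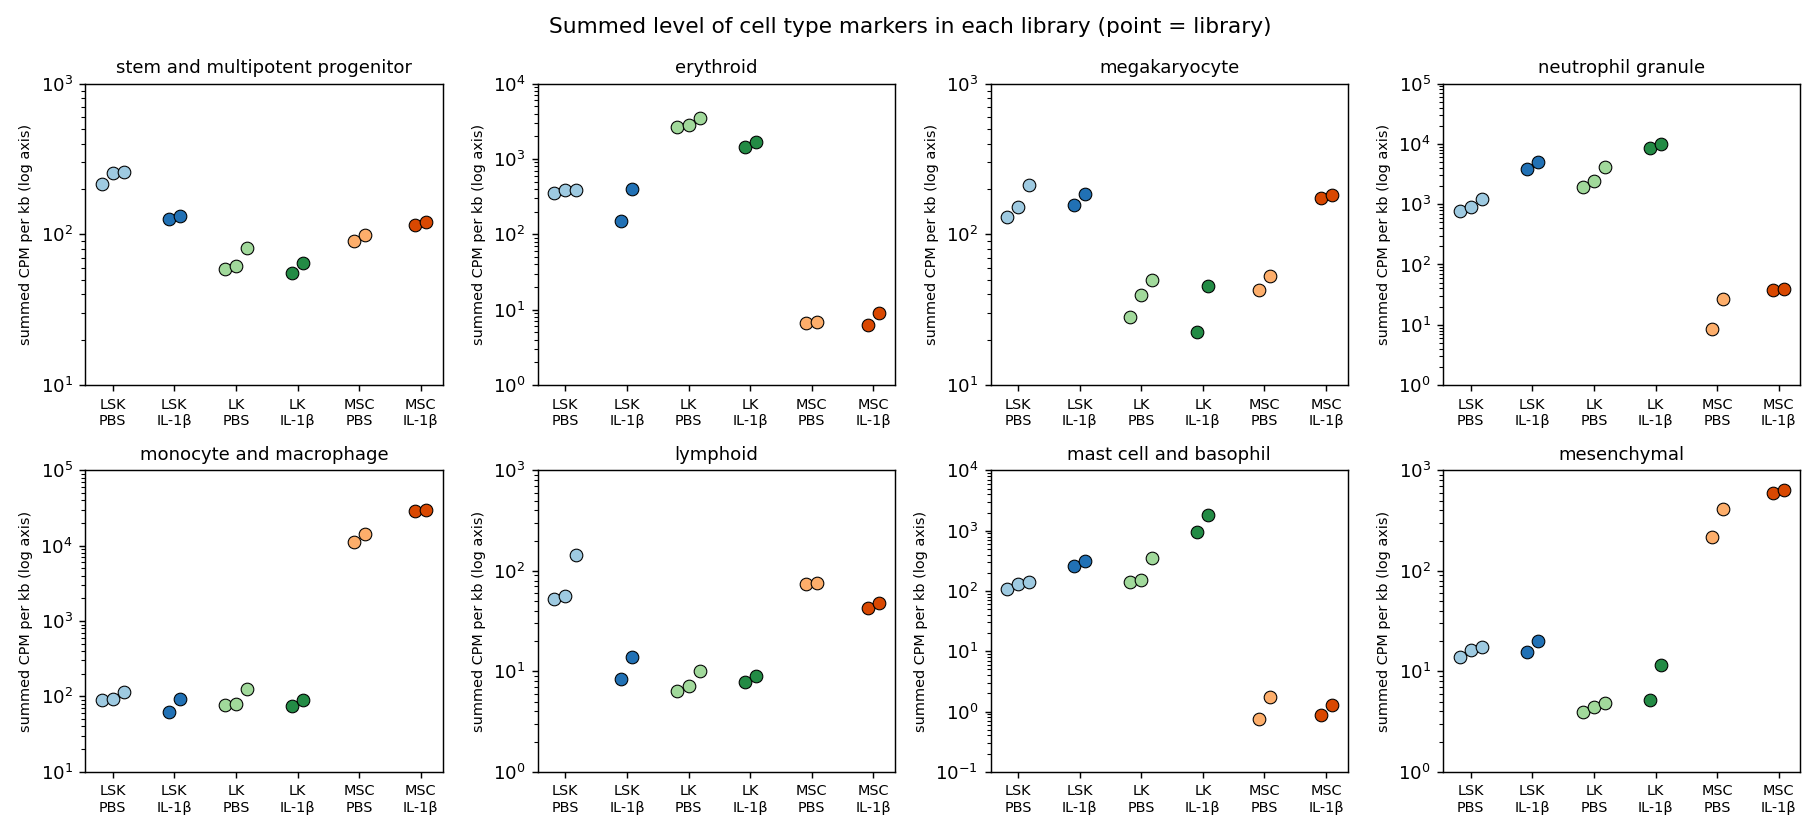
Summed level of 8 lists of cell type markers in each of the 14 libraries, in CPM per kb on log axes, by population and treatment, with 1 point a library. Monocyte and macrophage markers are highest in the MSC libraries and higher in their IL-1β libraries, neutrophil granule markers are higher with IL-1β in LSK and LK cells, and erythroid markers are lower with IL-1β in LK cells.

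Neutrophil granule genes moved with treatment in both progenitor populations. The summed level of their 12 markers was 887, 759 and 1214 CPM per kb in the LSK PBS libraries and 3844 and 4960 in the LSK IL-1β libraries, and 1930, 2455 and 4173 in LK PBS and 10076 and 8443 in LK IL-1β. Mpo, the gene of myeloperoxidase, was the most abundant in all 10 libraries, and 3 of 11 tested markers were called higher in LSK and 7 of 11 in LK. Camp, Mmp8 or Mmp9 was at 0 in some libraries of either treatment. The 7 mast cell and basophil markers summed to 350, 150 and 140 CPM per kb in LK PBS and to 1799 and 964 in LK IL-1β, led by Prss34 in the treated libraries, with 4 of 7 called higher and none at 0. The same sum was between 108 and 138 in LSK PBS and 317 and 261 in LSK IL-1β, where 3 of 7 were called higher. The 12 erythroid markers summed to between 2681 and 3454 CPM per kb in LK PBS and to 1450 and 1699 in LK IL-1β, led by Car1, with 6 of 12 called lower and none at 0. In LSK cells the 10 stem and multipotent progenitor markers summed to between 215 and 261 under PBS and to 133 and 126 under IL-1β, led by Cd34, with Flt3 and Hlf called lower. The 10 lymphoid markers summed to 56.2, 144 and 52.9 CPM per kb in LSK PBS and to 8.34 and 13.9 in LSK IL-1β, where 6 or 7 of them were at 0 and Dntt was called lower (-5.36). In LK cells Dntt was called lower as well, from 39, 96 and 83 counts under PBS to 0 in both IL-1β libraries. Flt3 (-2.39), the monocyte receptor gene Csf1r (-2.49) and the megakaryocyte gene Vwf (-1.58) were also called lower in LK cells, and the stem cell gene Hoxa9 (1.00) and Thy1 (3.24), of the mesenchymal list, were called higher. The part of these shifts in the values of Pim1, Stat3, the STAT5 genes or the other pathway genes described below was not tested.

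LSK cells were next compared with LK cells under the same treatment, which asks where in the progenitor hierarchy the pathway is expressed. Under PBS 3 of the 10 members were called, Stat3, Pim1 and Socs1, all higher in LSK cells, against 31.2% of 12737 genes called (18.4% higher and 12.8% lower in LSK). An unadjusted p under 0.05 was found for 4 of 10, where 43.2% of all genes had one, and 8 of 10 had a log2 fold change above 0, where 51.8% of all genes did. Stat3 was at 27.1, 27.1 and 21.9 CPM per kb in the LSK libraries and at 7.12, 7.25 and 10.6 in the LK libraries. The lowest LSK library was more than 2-fold above the highest LK library, and the log2 fold change was 1.69 ± 0.20 (SE), with an adjusted p of 0.000728 in edgeR's quasi-likelihood test. Pim1 was at 67.5, 71.1 and 69.3 CPM per kb in LSK and at 26.7, 24.97 and 31.2 in LK. These groups did not overlap either, and the log2 fold change was 1.42 ± 0.15 (SE, edgeR adjusted p = 0.000429). Socs1 was at 1.98, 0.852 and 1.98 CPM per kb in LSK and at 0.456, 0.415 and 0.688 in LK, with a log2 fold change of 1.72 ± 0.54 (SE) and an adjusted p of 0.0387 by edgeR. That call was lost without any one of 5 of the 6 libraries, all but LSK PBS replicate 2, at log2 fold changes between 1.49 and 1.99.

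The remaining members differed less between LSK and LK cells under PBS. Stat5b was higher in all LSK libraries, with a log2 fold change of 0.47 and an adjusted p of 0.0350 by edgeR, just under the fold threshold. With upper-quartile factors it was 0.51 with an adjusted p of 0.0199, and with all 10 progenitor libraries fitted together 0.51 with 0.0198, so that 4 members would be called. Stat5a pointed the other way at -0.22 (95% interval -0.60 to 0.15), and the 2 groups overlapped. Jak1 (0.32), Cish (0.31) and Socs2 (0.84) had positive log2 fold changes that did not pass the test. With the 6 PBS libraries scaled by themselves, 7 of the 10 members did not overlap between the populations, beside 50.4% of all genes tested, but on the scale of all 14 libraries Cish and Socs2 did overlap, with LSK replicate 3 below the highest LK library. Jak2 (0.07, interval -0.28 to 0.42) and Tyk2 (-0.15, interval -0.51 to 0.20) overlapped between the populations.

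Markers of maturing cells differed between LSK and LK cells too. Under PBS 11 of 12 erythroid markers were called lower in LSK cells, with sums of 351 to 386 CPM per kb against 2681 to 3454 in LK. All 10 stem and multipotent progenitor markers, which include the gate genes Ly6a and Kit, were called higher, with sums of 215 to 261 against 59.0 to 81.0. Of 7 tested neutrophil granule markers 5 were called lower, with sums of 759 to 1214 against 1930 to 4173. Of 5 tested megakaryocyte markers 4 were called higher in LSK cells, Itgb3 (2.75), Pf4 (2.46), Itga2b (1.93) and Vwf (1.69), and of 7 mast cell and basophil markers 3 were called lower and Gata2 (0.95) higher. The lymphoid gene Dntt (5.31) was called higher, and of the mesenchymal and monocyte lists Thy1 (3.15), Pdgfrb (1.79) and Lyz2 (1.22) were called higher and Ly6c2 (-2.46) lower. Under IL-1β 8 of 12 erythroid, 4 of 11 neutrophil granule and 3 of 7 mast cell and basophil markers were called lower in LSK cells, and 6 of 10 stem and multipotent progenitor and 4 of 5 megakaryocyte markers higher. The erythroid sums there were 151 and 401 in LSK against 1450 and 1699 in LK cells, the neutrophil granule sums 3844 and 4960 against 10076 and 8443, and the mast cell and basophil sums 317 and 261 against 1799 and 964. The stem and multipotent progenitor sums were 133 and 126 against 64.9 and 55.7, and the megakaryocyte sums 186 and 157 against 45.7 and 22.6. Dntt and Lyz2 were called higher and Ly6c2 lower under IL-1β as well. The part of these in the differences of Stat3, Pim1, Socs1 or the other pathway genes described below was not tested.

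Under IL-1β 0 of the 10 members were called between LSK and LK cells, against 8.32% of 11743 genes (4.18% higher and 4.14% lower in LSK), while 3 had an unadjusted p under 0.05, where 27.8% of all genes did. The log2 fold change was above 0 for 5 of 10, where 48.8% of all genes were. Pim1 came closest, at 70.5 and 73.7 CPM per kb in LSK and 47.8 and 41.5 in LK, without overlap. Its log2 fold change was 0.70 ± 0.18 (SE), with an adjusted p of 0.0536 in edgeR's quasi-likelihood test. Whether LSK and LK libraries of the same number are paired is uncertain, and 2 libraries a group give a single correlation (0.145) that cannot show it. With the replicate number as a block Pim1 was at 0.71 with an adjusted p of 0.0255 by edgeR and was called. The genes called in all went from 977 to 2057 there. DESeq2 and limma-voom each called 1 member, Pim1. Stat3 was at 25.6 and 17.5 CPM per kb in LSK and at 15.9 and 12.04 in LK, a log2 fold change of 0.64 with an adjusted p of 0.146 by edgeR. Socs2 had a log2 fold change of 1.21 with an adjusted p of 0.159 by edgeR, and 6 of the 10 members did not overlap, beside 59.5% of all genes.

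Here too single libraries moved the values. A fit without either LSK IL-1β library leaves a single LSK library, so only sizes are given. Without LSK IL-1β replicate 2 the log2 fold change was 0.86 for Stat3, 0.52 for Stat5b, 0.65 for Pim1 and -2.14 for Cish. Without LSK IL-1β replicate 1 it was 1.51 for Socs2, 0.77 for Pim1, -0.68 for Jak1 and -0.64 for Jak2. Apart from Pim1, the members named differ between these fits, since they were picked from the results of each fit. The 2 LSK IL-1β libraries differed from each other for Jak1, Cish and Stat3, at 31.8 and 18.3 CPM per kb for Jak1, 0.256 and 1.17 for Cish and 25.6 and 17.5 for Stat3 in replicates 1 and 2.

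**Figure D4:**
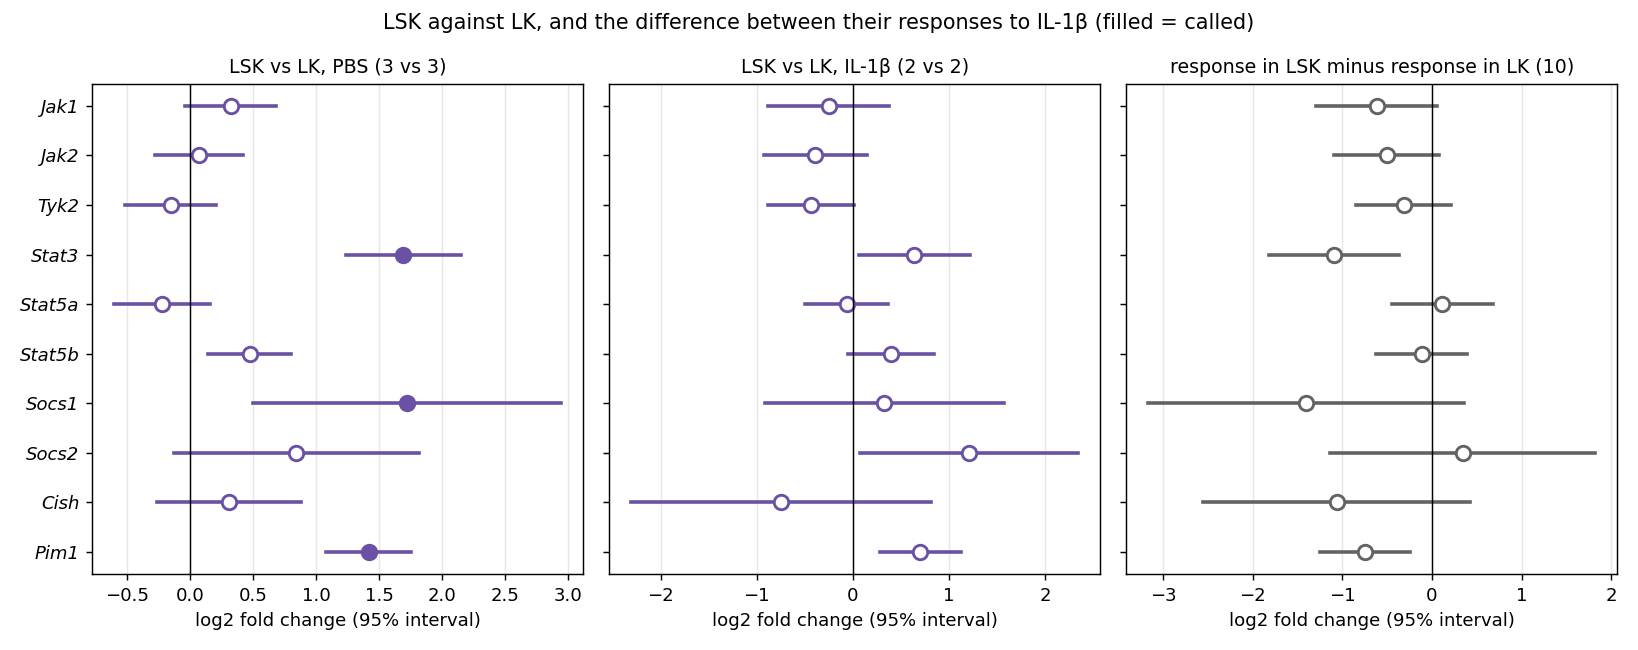
Log2 fold change of each gene between LSK and LK cells under PBS (left) and IL-1β (middle), and the log2 difference between their responses to IL-1β (right), with 95% intervals. Filled points are called genes, Stat3, Socs1 and Pim1 under PBS, and the intervals of Stat3 and Pim1 in the right panel lie below 0 although neither passed the adjusted test.

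Whether IL-1β acted differently in the 2 populations was tested with an interaction term over the 10 progenitor libraries. Of the 10 members 0 were called, against 0.0289% of 13839 genes (0.00723% with a log2 difference above 0 and 0.0217% below 0). Unadjusted p-values under 0.05 were found for 2 members, Stat3 and Pim1, where 14.2% of all genes had one, and DESeq2 and limma-voom called 0. The log2 difference, the LSK response minus the LK response, was -1.09 ± 0.33 (SE) for Stat3 and -0.75 ± 0.23 for Pim1, with adjusted p-values of 0.207 and 0.209 in edgeR's quasi-likelihood test. It was above 0 for 2 of the 10 members, Socs2 and Stat5a, where 43.6% of all genes were, with a median of -0.56 beside -0.12 over all genes.

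The other genes of the pathway were described by list, starting with the receptors that signal through JAK2. In LK cells 16 of the 21 listed receptors could be tested and 8 of them were called, of which 6 rose and 2 fell with IL-1β, where 9.34% of all genes were called. Il5ra, the eosinophil and basophil lineage receptor for interleukin-5, had a log2 fold change of 2.54 but rested on 7 to 31 counts a library. Csf3r, the G-CSF receptor of neutrophils, was at 19.2, 43.4 and 40.1 CPM under PBS and at 144 and 126 CPM under IL-1β, a log2 fold change of 1.97 with an adjusted p of 0.0218 by edgeR. Csf2rb, the common beta chain of the receptors for GM-CSF, interleukin-3 and interleukin-5, was at 44.5, 52.0 and 64.6 CPM under PBS and at 229 and 189 CPM under IL-1β. That was the most certain receptor change, without overlap, at a log2 fold change of 1.96 ± 0.16 (SE) and an adjusted p of 0.00104 by edgeR, and its paralog Csf2rb2 rose as well. Of the 50-base windows 894 of 7268 in Csf2rb and 912 of 4836 in Csf2rb2 were also found in another gene, most often the paralog, so the split of reads between them is uncertain. Csf2ra, the GM-CSF receptor alpha chain, rose by 1.598. The 2 receptors that fell were Il6st, the shared gp130 chain of the interleukin-6 family (-1.42), and Epor, the erythropoietin receptor (-0.98). The median over the 16 receptors was 0.51, beside -0.03 over all genes. In the same LK comparison 7 of 11 neutrophil granule and 4 of 7 mast cell and basophil markers were called higher. Of 12 erythroid markers 6 were called lower. How far these shifts enter the receptor values was not tested.

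In MSC 5 of 16 tested receptors were called, where 11.4% of all genes were. Csf3r (1.45), Csf2rb (0.90) and Csf2rb2 (0.75) rose, and the prolactin receptor Prlr (-2.68, from 8 to 55 counts a library) and the interleukin-11 receptor Il11ra1 (-1.05) fell. In the same MSC comparison 6 of 11 tested monocyte and macrophage markers and 2 of 4 tested neutrophil granule markers were called higher. Of 11 tested mesenchymal markers 1 was called, also higher. How far such shifts enter the receptor values was not tested.

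**Figure D5:**
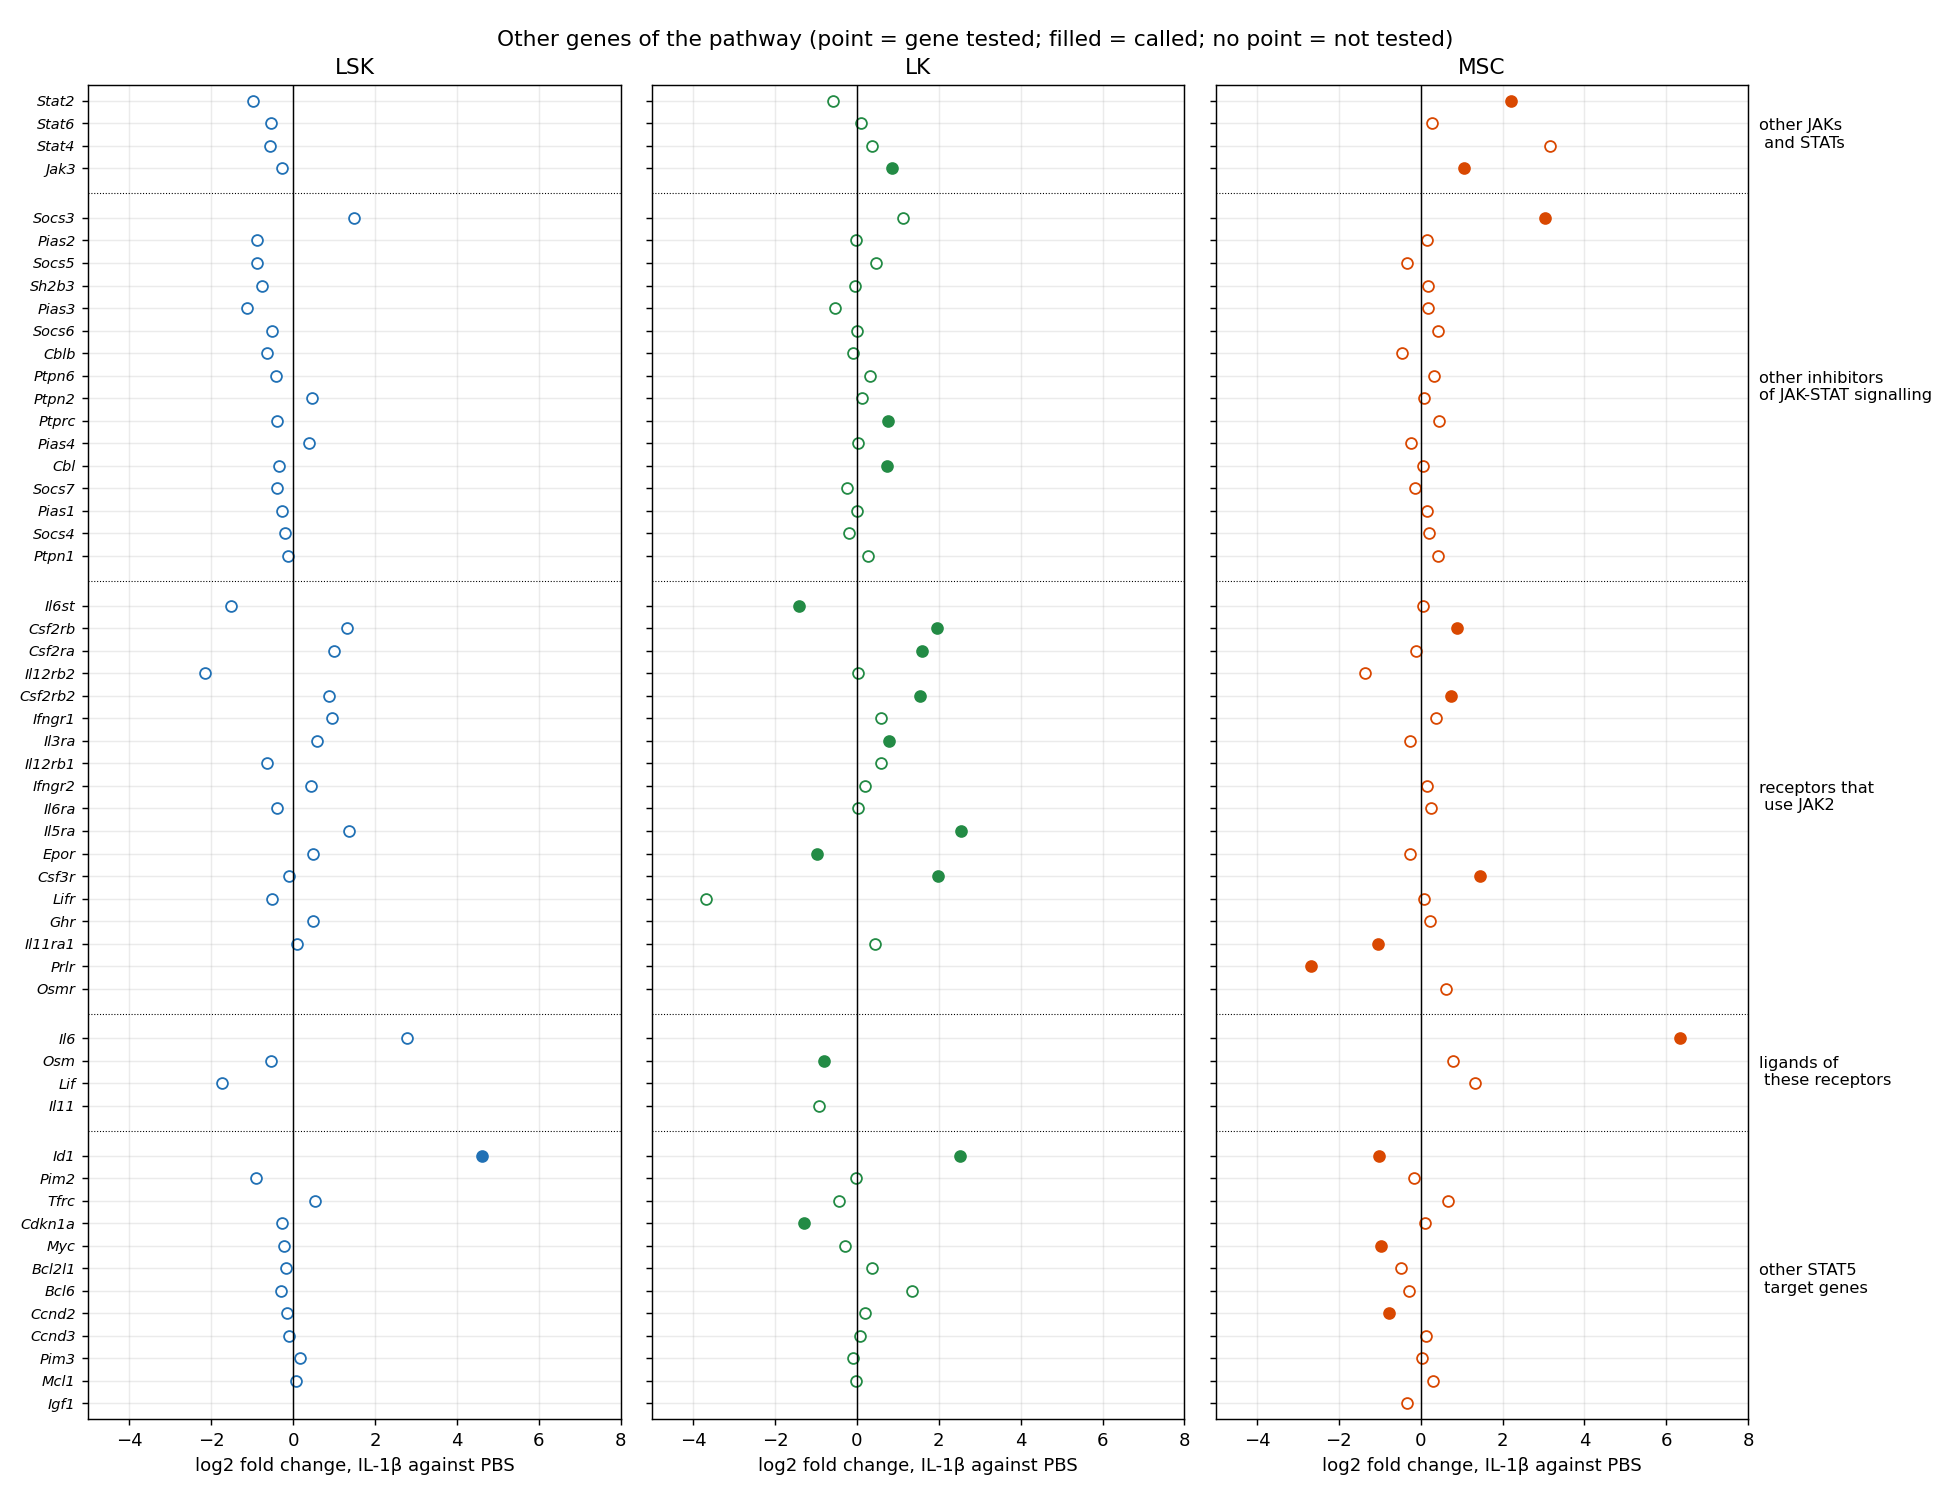
Log2 fold change with IL-1β of the other JAKs and STATs, inhibitors, receptors, ligands and STAT5 target genes in LSK, LK and MSC libraries, with 1 row a gene shown that was tested in at least 1 population. Filled points are called genes, among them 8 receptors in LK cells, Stat2, Jak3, Socs3 and Il6 in MSC, and Id1 in LSK cells.

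Of the other JAKs and STATs, 0 of 5 were called in LSK, 1 of 5 in LK and 3 of 5 in MSC, beside 0.632%, 9.34% and 11.4% of all genes, with medians of -0.53, 0.27 and 1.05. Stat2, the interferon-specific STAT, was at 40.8 and 43.7 CPM in MSC PBS and at 187 and 203 CPM in MSC IL-1β, a log2 fold change of 2.20 ± 0.11 (SE) with an adjusted p of 0.00124 by edgeR. Jak3 rose by 1.05 in MSC. In LK cells Jak3, the kinase of the common gamma chain, rose by 0.87 (edgeR adjusted p = 0.0377). The lowest adjusted p of this list in LSK cells was that of Stat2, with a log2 fold change of -0.99 and 0.176 by edgeR. Under PBS 3 of the 5 were called higher in LSK than in LK cells, beside 18.4% of all genes, with Stat4 (2.45) and Jak3 (2.07) among them, and Stat4 (1.53) and Jak3 (0.93) also under IL-1β.

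Among the 16 other inhibitors of JAK-STAT signalling, 1 was called in MSC, 2 in LK and 0 in LSK cells, where 11.4%, 9.34% and 0.632% of all genes were called. Socs3, the inhibitor of interleukin-6 and G-CSF receptors, was at 18.3 and 15.7 CPM in MSC PBS and at 139 and 139 CPM in MSC IL-1β. The treated cultures were alike and far above both controls, and the log2 fold change of 3.04 ± 0.12 (SE) had an adjusted p of 0.000584 in edgeR's quasi-likelihood test. In LSK cells Socs3 was at 11.1, 5.72 and 11.47 CPM under PBS and at 31.6 and 21.3 CPM under IL-1β, without overlap, and its log2 fold change of 1.49 had an adjusted p of 0.121 by edgeR. The calls in LK cells were the phosphatase gene Ptprc (0.75) and the ubiquitin ligase gene Cbl (0.75), both higher. Between LSK and LK cells under PBS 6 of 16 were called, all of them higher in LSK, where 18.4% of all genes were called higher and 31.2% in either direction. They were led by Socs3 (2.54), Socs5 (1.71), Ptprc (1.51) and Cbl (0.78), and under IL-1β Socs3 alone (2.88).

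Of the 14 ligands of these receptors, most had too few counts to be tested. Il6, the gene of interleukin-6, had 1 and 6 counts in the MSC PBS libraries and 942 and 324 in the MSC IL-1β libraries, 0.167 and 0.452 against 30.9 and 28.6 CPM, with a fitted log2 fold change of 6.34 and an adjusted p of 0.000910 by edgeR. In LSK cells Il6 had the lowest adjusted p of the list, 0.248 by edgeR, at 2 to 21 counts a library. Osm, the gene of oncostatin M, was called lower in LK cells with IL-1β (-0.80) and lower in LSK than in LK cells under PBS (-1.24). Under IL-1β its log2 fold change between LSK and LK cells was -0.99, with an adjusted p of 0.146 by edgeR.

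Of the 13 other STAT5 target genes, 1 of 11 tested was called in LSK, 2 of 11 in LK and 3 of 12 in MSC, beside 0.632%, 9.34% and 11.4% of all genes, with median log2 fold changes of -0.14 in LSK, -0.02 in LK and -0.22 in MSC. Id1, an inhibitor of differentiation factors that also answers to BMP signals, was at 1.76, 0.235 and 1.11 CPM in LSK PBS and at 20.3 and 31.0 CPM in LSK IL-1β, from 3 to 24 counts in the controls. The fitted log2 fold change was 4.60 ± 0.67 (SE, edgeR adjusted p = 0.0207). Id1 also rose in LK cells (2.52) and fell in MSC (-1.01). Cdkn1a, the gene of the cell cycle inhibitor p21, fell in LK cells (-1.29). The proliferation genes Myc (-0.97) and Ccnd2 (-0.78) fell in MSC, where Pim1 and Cish rose. Under PBS 5 of 11 tested targets were called between LSK and LK cells, beside 31.2% of all genes, with Pim2 (2.54), Bcl2l1 (1.51), Cdkn1a (0.77) and Ccnd2 (0.71) higher and the transferrin receptor gene Tfrc (-2.26) lower in LSK cells. Cdkn1a (1.78), Pim2 (1.65) and Tfrc (-1.30) were also called under IL-1β.

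Between the 2 progenitor populations under PBS 11 of 16 receptors were called, 9 higher and 2 lower in LSK cells, where 31.2% of all genes were called (18.4% higher and 12.8% lower). The interleukin-12 receptor chain Il12rb1 (3.16) and Il11ra1 (1.83) were among those higher in LSK cells, and Epor (-3.73) was lower. Epor was at 5.99, 3.45 and 6.99 CPM per kb in LSK PBS and at 89.6, 87.9 and 56.6 in LK PBS, so that every LK library was far above every LSK library. Under IL-1β 5 of 16 were called, beside 8.32% of all genes, among them Il12rb1 (1.94) and Il11ra1 (1.504), which were higher, and Epor (-2.29) and the interferon-gamma receptor gene Ifngr1 (-1.11), which were lower in LSK cells. In the test of the difference between the 2 responses to IL-1β, 0 genes of the other lists were called. The lowest adjusted p-values there were 0.104 for Csf3r (-2.12), 0.145 for Socs5 (-1.40), 0.161 for Jak3 (-1.17), 0.245 for Tfrc (0.92) and 0.745 for Lif (-1.52) by edgeR.

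Over the 10 LSK and LK libraries, the genes whose log2 CPM followed the inhibitors and Pim1 most closely were sought among 11027 genes. For Pim1 they were B4galt5 (Pearson r = 0.99), the interleukin-4 receptor gene Il4ra (0.98) and Cers5 (0.98). Socs1 was followed by Tec (0.97), which encodes a cytokine-activated tyrosine kinase, Fkbp1a (0.96) and Dnal4 (0.95). Among the closest to Cish were Zfp868 (0.95) and Zpbp (0.93), and the closest to Socs2 were S100pbp (0.95), Zfp664 (0.93) and Exog (0.91). These values describe 10 libraries that share 2 populations, 2 treatments and a depth that moves with treatment, and the genes were picked as the highest of many.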

How the data were processed

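The values the authors deposited were counts of read pairs per gene, in a table each for LSK, LK and MSC. Per the labels and file headers, reads of rRNA-depleted libraries (NEBNext Ultra II) were trimmed with fastp 0.20.0, aligned to GRCm38 with HISAT2 2.0.1, sorted with SAMtools 1.10 and counted with featureCounts 2.0.2 in reverse-stranded mode on Ensembl genes, without normalisation. The counting command shows no option for multi-mapped reads, which can lower genes with close paralogs.

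The tests ran on these counts with edgeR 4.0.16 under R 4.3.3 (filterByExpr, TMM factors, robust glmQLFit and glmQLFTest), and Benjamini-Hochberg adjustment covered all genes tested. The standard error is the size of the log2 fold change over the square root of F, and intervals are at 95%. CPM were TMM-scaled within a table, and CPM per kb over all 14 libraries, per 1000 bases of exon. Likeness used log2 CPM with a prior count of 2 over genes with a mean of at least 1. Deviations from the group means were correlated between LSK and LK libraries of the same number (0.158, 0.132 and 0.477 under PBS, and 0.145 under IL-1β, where 2 libraries a group give a single value), so the numbers, which come from the labels, were taken to pair these libraries. LSK PBS replicate 2 was closer to LK PBS replicate 1 (0.189) than to its own number, so the pairing is uncertain.

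Alternatives were DESeq2 1.42.0, limma-voom (limma 3.58.1), DESeq2 size factors, upper-quartile factors, no filter, a joint fit of LSK and LK, the replicate block and each library left out. Named genes were the 10 members, in each other list the called genes with the largest log2 fold changes (at most 4) or else the gene with the lowest adjusted p, and the 3 most alike genes. Csf2rb2, Il6st, Epor, Ccnd2 and Ifngr1, where they fall outside this rule, and the marker genes were named after their values were seen. The members and lists were chosen with earlier results of these data known. Sequences are RefSeq's. Some genes that the rule names are not reported here.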

Additional observations from a re-analysis of the deposited data

Results flagged for a closer look

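The log2 fold changes with IL-1β of 6 members pointed in opposite directions in a progenitor population and in MSC, with no overlap between treatments in either. In LSK cells and in MSC they were -0.56 and 0.44 for Jak1, -0.44 and 1.06 for Jak2, -0.36 and 0.21 for Tyk2, -0.34 and 0.19 for Stat5b, and -1.36 and 2.57 for Cish. In LK cells and in MSC they were -0.40 and 0.35 for Stat5a, -0.26 and 0.19 for Stat5b, and -0.35 and 2.57 for Cish. The difference between the populations was not tested, the doses, durations and routes differ, and of these values only those of Jak2 and Cish in MSC were called. Opposite directions without overlap were found for 5 of the 10 members between LSK and MSC, beside 17.1% of the 11566 genes tested in both, and for 3 of 10 between LK and MSC, beside 11.9% of 11358 genes.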

How the results depend on the processing

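Each IL-1β group had only 2 libraries, those of LSK and LK were shallower than their PBS libraries, and LSK PBS replicate 2 stood apart. Each of the 10 members changed a call or a direction in at least 1 comparison and alternative, and the cause of these changes was not tested. The genes called with IL-1β in LSK cells, 83 in the fit described, were 905 by DESeq2, 21 by limma-voom, 869 without a filter, 1228 in the joint fit and 702 with a replicate block, while 0 members were called under each. In LK cells 1199 genes became 1844 without a filter, 489 in the joint fit and 2331 with the block, and the 1 member became 2 by DESeq2 and without a filter (Stat3, 0.80, adjusted p 2.26e-09 without the filter) and 3 with the block (Stat3, 1.03, and Socs1, 1.67). PBS replicate 3 of LSK and of LK has no IL-1β library of its number, so with the block it adds nothing to the treatment effect. The change with the block within a population is therefore not separate from leaving that library out. In MSC 1515 genes became 2354 without a filter, where Socs2 (-0.83) was also called. Between LSK and LK cells under IL-1β 977 genes became 2164 without a filter, 609 in the joint fit and 2057 with the block, and 0 members became 1 (Pim1) by DESeq2, limma-voom, upper-quartile factors, the joint fit and the block, and 2 without a filter (Stat3 and Pim1). For the difference of the responses 4 genes became 332 by DESeq2, 1 by limma-voom, 398 without a filter and 24 with the block. Socs1 in LSK against LK under PBS was at an adjusted p of 0.0520 by edgeR without a filter.

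With each library left out in turn, genes called ranged from 3 (without LSK IL-1β replicate 2) to 480 (without LSK PBS replicate 2) in LSK, 66 (without LK IL-1β replicate 1) to 2409 (without LK PBS replicate 3) in LK, 38 (without MSC IL-1β replicate 1) to 3819 (without MSC PBS replicate 2) in MSC, 2145 (without LK PBS replicate 1) to 4965 (without LSK PBS replicate 2) between LSK and LK under PBS, 358 (without LK IL-1β replicate 2) to 4170 (without LSK IL-1β replicate 2) under IL-1β and 0 (without LSK IL-1β replicate 2) to 336 (without LSK PBS replicate 2) for the difference of the responses. Members called ranged from 0 to 3 in LK, 0 to 6 in MSC and 0 to 4 between LSK and LK under IL-1β. A fit that leaves 1 library in a group assumes that it varies like the others.

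Some directions reversed. Socs1 in LSK was at -0.063 by limma-voom, Jak1 and Jak2 in LK at -0.032 and -0.018 with upper-quartile factors and at -0.016 and -0.0019 without a filter, Stat5a between LSK and LK under IL-1β at 0.013 with upper-quartile factors, and Stat5b at 0.00058 without a filter for the difference of the responses. Over libraries left out, the log2 fold change ranged from -0.53 to 0.029 for Stat3, -0.50 to 0.55 for Socs1 and -0.58 to 0.080 for Socs2 in LSK, and from -0.041 to 0.063 for Jak1, -0.033 to 0.074 for Jak2 and -0.15 to 0.0013 for Tyk2 in LK. Between LSK and LK it ranged from -0.079 to 0.15 for Jak2 under PBS, and from -0.68 to 0.069 for Jak1, -0.15 to 0.014 for Stat5a, -0.28 to 0.83 for Socs1 and -2.14 to 0.097 for Cish under IL-1β. The difference of the responses ranged from -0.023 to 0.31 for Stat5a and -0.23 to 0.019 for Stat5b.

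PBS and IL-1β libraries of the same number share only that number, with correlations of 0.188 and -0.0179 in LSK and -0.138 and 0.121 in LK, and the block changed no other member's call. No paired analysis was possible for MSC because its groups share fewer than 2 numbers.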
